A study of Mus musculus with 4 samples.

Results

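The 6 prefoldin subunit genes *Pfdn1*, *Pfdn2*, *Pfdn4*, *Pfdn5*, *Pfdn6* and *Vbp1* and the 4 tubulin-folding cofactor genes *Tbca*, *Tbcb*, *Tbcd* and *Tbce* were followed through the maturation of mouse oocytes with and without tubastatin A (TubA). These 10 genes were chosen by name, for their role in folding tubulin, out of the 21957 genes of the expression table, with earlier results of these data known. The cofactor gene *Tbcc* is not among them and is given below with other genes of the pathway. All 10 were measured above 0 in every library. The subunit gene *Pfdn6* stood apart from the other members. Its level was 485 FPKM in germinal vesicle (GV) oocytes, 89.5 FPKM in metaphase II (MII) oocytes and 93.5 FPKM with 10 μM TubA, and only 21.7 FPKM with 20 μM TubA. *Pfdn4* was the highest member in all 4 libraries, and its level differed by less than 2-fold between any of them.

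Oocytes were taken from the ovaries of B6D2F1 females (C57BL/6 crossed with DBA) of 6 to 8 weeks that had been primed with PMSG, and were freed of their cumulus cells. GV oocytes were collected at 0 h, and the remaining oocytes were cultured for 12 h in M16 medium without TubA (MII), with 10 μM TubA (TubA10) or with 20 μM TubA (TubA20), where TubA had been dissolved in DMSO. MII oocytes were collected when they had extruded a polar body. The methods name this selection for the MII oocytes and no such selection for the TubA oocytes, so a difference in meiotic stage and an effect of the drug cannot be told apart in comparisons of TubA with MII. Each group was 1 library, described in the methods as a pool of 100 oocytes. The sample titles give 10 and 20 μM for the TubA libraries, while the treatment field gives 20 μM for TubA10 and 11 μM for TubA20, and the doses in the titles are used here. With 1 library a group, no difference between libraries could be set against a spread between replicates, and no p-value is given.

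Values are FPKM, a fragment count scaled to transcript length and to library depth, which the authors had calculated before deposit and which allow levels of different genes to be compared within a library. Changes are log2 ratios of FPKM + 1, and 2-fold was the threshold for counting a gene as higher or lower. In each library, between 14434 and 15440 genes were above 0. Read counts are not used here. The smallest FPKM steps put the depth of MII at 1.64 times, TubA10 at 1.68 times and TubA20 at 0.895 times that of GV. These are estimates, and the order of GV and TubA20 in depth is not settled by them. All 12 oocyte markers were above 1 FPKM in each library, with summed levels from 14882 to 17750 FPKM, of which *Dppa3* alone had 5806 to 8610 FPKM. Of these markers, 5 were lower past 2-fold in TubA20 against GV and 1 was higher. There, 26.8% of genes that reached 5 FPKM in either library were lower and 7.61% of all genes were higher. Against MII, 4 were lower in TubA20 and 0 higher (*Figla* -1.68, *Zp2* -1.41, *Zp3* -1.21 and *Padi6* -1.14, median of the 12 -0.46). The shares were 6.09% of genes that reached 5 FPKM lower and 0.328% of all genes higher. Some of these markers were thus also lower in the TubA20 library, and their part in the level of *Pfdn6* was not tested. The summed level of 12 cumulus and granulosa cell markers was between 8.42 and 15.6 FPKM, with 4 to 6 of them at 0 in each library. *Foxl2* was at 0 in every library, while *Cyp19a1* had 6.14 to 10.3 FPKM. *Inha* had 7.50 FPKM in GV and 0.239 to 0.314 FPKM in the cultured libraries, lower past 2-fold in each. In TubA20 against GV, 2 other markers of this list were higher past 2-fold, at or below 1.57 FPKM. The 8 blood cell markers summed to 1.64 to 2.26 FPKM. In such bulk samples, fewer cells with a transcript and less of it per cell cannot be told apart.

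Prefoldin is a jellyfish-shaped co-chaperone built of a pair of alpha-class subunits, encoded by *Pfdn5* and *Vbp1*, and beta-class subunits, encoded by *Pfdn1*, *Pfdn2*, *Pfdn4* and *Pfdn6*. It grips unfolded actin and tubulin chains as they leave the ribosome and hands them to the cytosolic chaperonin CCT. Tubulins released from CCT are then held by cofactors, *Tbca* for beta-tubulin and *Tbcb* for alpha-tubulin, and passed to *Tbcd* and *Tbce*, which join them into the heterodimer that microtubules are made of. In the oocyte these microtubules form the meiotic spindle. Fully grown oocytes are known to make little new RNA during maturation and to draw on stored transcripts. TubA is an inhibitor of HDAC6, a deacetylase of alpha-tubulin.

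The promoters of *Pfdn2* and *Pfdn6* are shown because *Pfdn2* was lowest in GV and highest in TubA20 where *Pfdn6* was the reverse, and because both start head-to-head with another gene. *Pfdn4* was also lowest in GV and highest in TubA20 and starts head-to-head with *Cyp24a1*, but its promoter is not printed. Both printed promoters were taken from RefSeq on GRCm38.p6 and run from 250 bases before to 50 bases after the start of the gene, 5′ to 3′ on the strand of the gene. Capitals mark the GC box GGGCGG and the ETS core CCGGAA, each searched on both strands; the first reads CCGCCC and the second TTCCGG on the other strand, and no marked matches overlap.
Pfdn2, chr1:171345425-171345724, plus strand: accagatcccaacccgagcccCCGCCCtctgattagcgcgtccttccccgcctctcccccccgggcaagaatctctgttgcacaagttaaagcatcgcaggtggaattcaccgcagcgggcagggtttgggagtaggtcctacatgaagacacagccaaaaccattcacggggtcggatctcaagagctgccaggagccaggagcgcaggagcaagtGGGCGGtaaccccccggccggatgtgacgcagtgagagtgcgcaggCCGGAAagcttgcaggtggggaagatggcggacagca
Pfdn6, chr17:33940294-33940593, minus strand: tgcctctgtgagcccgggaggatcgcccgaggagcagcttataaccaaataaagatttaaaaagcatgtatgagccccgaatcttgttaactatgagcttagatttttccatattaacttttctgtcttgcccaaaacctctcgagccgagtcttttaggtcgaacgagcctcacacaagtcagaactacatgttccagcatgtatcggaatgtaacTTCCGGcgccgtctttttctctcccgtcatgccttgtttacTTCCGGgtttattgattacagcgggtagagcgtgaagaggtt

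The *Pfdn2* promoter held 2 GC boxes and 1 ETS core at 62.0% G and C, and the *Pfdn6* promoter held 2 ETS cores and no GC box at 46.0% G and C. Over all 32851 promoters in the table the median was 52.7% G and C, 35.7% held a GC box and 14.9% held an ETS core. The table gave promoters for 9 of the 10 members, and that of *Pfdn1* was not analysed here. A GC box was also found in *Pfdn4*, *Pfdn5*, *Tbca* and *Tbcd*, with 1 in each. *Tbcb* held 3 GC boxes at 61.7% G and C, and no GC box was found in *Vbp1* or *Tbce*. G and C ran from 46.0% in *Pfdn6* to 63.0% in *Pfdn4* over these 9 promoters. None of these 9 held the letters TATAAA, which 13.6% of all promoters held, and CCAAT was found in *Vbp1* with 3 matches and in *Tbcd* with 1 match, beside 37.4% of all promoters. Matches of the ETS core were also found in *Pfdn4* and *Tbce*, with 2 in each, and a link between any of these letters and the levels was not tested. Such matches describe the letters of the window only.

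Among the beta-class subunits, *Pfdn6* (chr17:33938821-33940343, minus strand) had 485 FPKM in GV, 89.5 FPKM in MII, 93.5 FPKM in TubA10 and 21.7 FPKM in TubA20. MII and TubA10 were close to each other and TubA20 was the lowest library. Its FPKM was 5.42-fold lower in MII than in GV, 22.3-fold lower in TubA20 than in GV, 4.12-fold lower in TubA20 than in MII and 4.31-fold lower in TubA20 than in TubA10. On the log2 scale of FPKM + 1, these differences were -2.42, -4.42, -1.99 and -2.06. TubA10 differed from MII by only 0.06. Its place among the genes above 0 moved from 247 in GV to 1264 in MII, 1253 in TubA10 and 3627 in TubA20, where it stood in the top 25.1%. Few genes had a change of this size on that scale, on which the pseudocount of 1 shrinks the change of low genes. *Tubb2b*, for example, was 4.55-fold lower in TubA20 than in MII by FPKM. Its change on this scale was -1.87, so it is not counted here. Of the 7197 genes with at least 5 FPKM in MII or TubA20, 5 including *Pfdn6* (0.0695%) were as low as it or lower in TubA20 against MII, and 8 of 7778 (0.103%) were as low in TubA20 against GV. For MII against GV the same count was 109 of 7685 genes (1.42%), and for TubA20 against TubA10 it was 86 of 7374 genes (1.17%). With the pseudocount of 1, genes near 5 FPKM in GV could not fall as far as *Pfdn6* in TubA20 against GV, even if absent from TubA20. These shares are thus not of genes matched to *Pfdn6* in level.

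**Figure D1:**
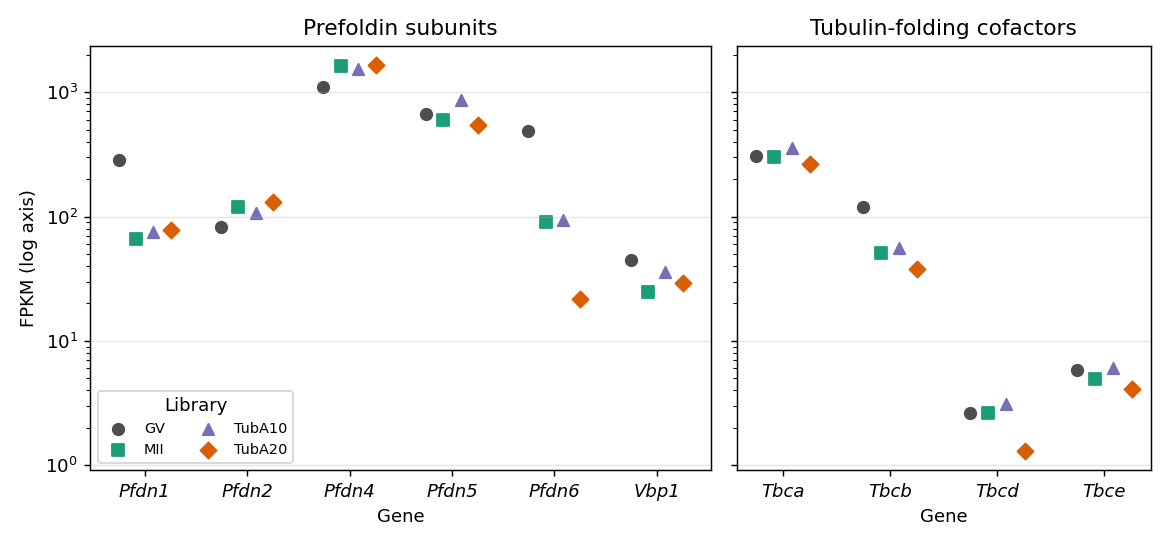
FPKM of the 10 members (log10 axis) in the GV, MII, TubA10 and TubA20 libraries, 1 point for each library, with the prefoldin subunits on the left and the cofactors on the right. *Pfdn6* goes from 485 FPKM in GV to 21.7 FPKM in TubA20, while *Pfdn4* stays between 1109 and 1647 FPKM.

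*Pfdn1* (chr18:36403676-36454524, minus strand), the other beta-class gene with a low MII level, had 282 FPKM in GV, 65.3 FPKM in MII, 75.1 FPKM in TubA10 and 77.2 FPKM in TubA20. Its 3 cultured libraries lay close together and far under GV, with changes of -2.09, -1.90 and -1.86 against GV. Unlike that of *Pfdn6*, its level in TubA20 was near that in MII, with a change of 0.24, and near that in TubA10, with a change of 0.04. The last value was below 0 under each of the 4 other scalings of the libraries that were tried, where it reached -0.15. Of the 7685 genes with at least 5 FPKM in GV or MII, 3.62% were as low as *Pfdn1* in MII against GV.

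*Pfdn2* and *Pfdn4*, the remaining beta-class genes, were both higher in the cultured libraries than in GV. *Pfdn4* (chr2:170496428-170519123, plus strand) had 1109 FPKM in GV, 1609 FPKM in MII, 1539 FPKM in TubA10 and 1647 FPKM in TubA20, which placed it in the top 0.208% to 0.399% of the genes above 0. *Pfdn2* (chr1:171345670-171359254, plus strand) had 81.6 FPKM in GV, 119 FPKM in MII, 106 FPKM in TubA10 and 130 FPKM in TubA20. GV was the lowest library for both genes and TubA20 the highest, with TubA10 under MII. Against GV the changes of *Pfdn4* were 0.54 in MII, 0.47 in TubA10 and 0.57 in TubA20, and those of *Pfdn2* were 0.54, 0.37 and 0.67. None passed 2-fold. TubA20 differed from MII by 0.03 for *Pfdn4* and 0.13 for *Pfdn2*, and the sign of both turned when libraries were scaled to equal FPKM sums (-0.11 and -0.02) or equal *Gapdh* (-0.12 and -0.03), and that of *Pfdn4* also with equal upper quartiles (-0.09).

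Of the alpha-class genes, *Pfdn5* (chr15:102326116-102331873, plus strand) had 671 FPKM in GV, 592 FPKM in MII, 863 FPKM in TubA10 and 542 FPKM in TubA20. TubA10 was the highest of these libraries and TubA20 the lowest, and the difference between both doses was -0.67. *Pfdn5* overlaps the gene *Myg1* on the same strand by 165 bases, so that fragments there may have been split between them, and *Myg1* itself had 18.6, 5.12, 8.75 and 1.89 FPKM in GV, MII, TubA10 and TubA20. *Vbp1* (chrX:75514299-75534942, plus strand) had 44.9 FPKM in GV, 24.7 FPKM in MII, 35.6 FPKM in TubA10 and 29.0 FPKM in TubA20. It was highest in GV and lowest in MII, and its change in MII against GV, -0.84, stayed within 2-fold. TubA10 was above MII for both alpha-class genes, by 0.54 for *Pfdn5* and 0.51 for *Vbp1*, and 89.6% and 88.2% of the 7292 genes that reached 5 FPKM in TubA10 or MII had a change as low or lower.

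Because all 6 products enter the same complex, their levels were also set against each other within each library, where the scaling between libraries has no effect on shares and ratios. The summed level of the 6 genes was 2673 FPKM in GV, 2500 FPKM in MII, 2713 FPKM in TubA10 and 2447 FPKM in TubA20. Without *Pfdn4* the sum was 1564 FPKM in GV, 891 FPKM in MII, 1174 FPKM in TubA10 and 800 FPKM in TubA20, so the like totals rested on *Pfdn4*, and both sums depend on the scaling between libraries. *Pfdn4* made up 41.5% of it in GV, 64.4% in MII, 56.7% in TubA10 and 67.3% in TubA20, and *Pfdn6* made up 18.1%, 3.58%, 3.45% and 0.887%. *Pfdn1* went from 10.6% in GV to 2.61% in MII, 2.77% in TubA10 and 3.16% in TubA20. The alpha-class *Pfdn5* held between 22.1% and 31.8%, *Pfdn2* between 3.05% and 5.32%, and *Vbp1* between 0.989% and 1.68%. *Vbp1* was the lowest subunit gene in GV, MII and TubA10, and *Pfdn6* was the lowest in TubA20. The ratio of the highest to the lowest subunit gene was 24.7 in GV, 65.0 in MII, 43.2 in TubA10 and 75.9 in TubA20. Similarly, *Pfdn6* was 5.94 times as high as *Pfdn2* in GV, but 0.752 times in MII, 0.882 times in TubA10 and 0.167 times in TubA20. These are levels of transcripts, and the amounts of protein were not analysed here.

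**Figure D2:**
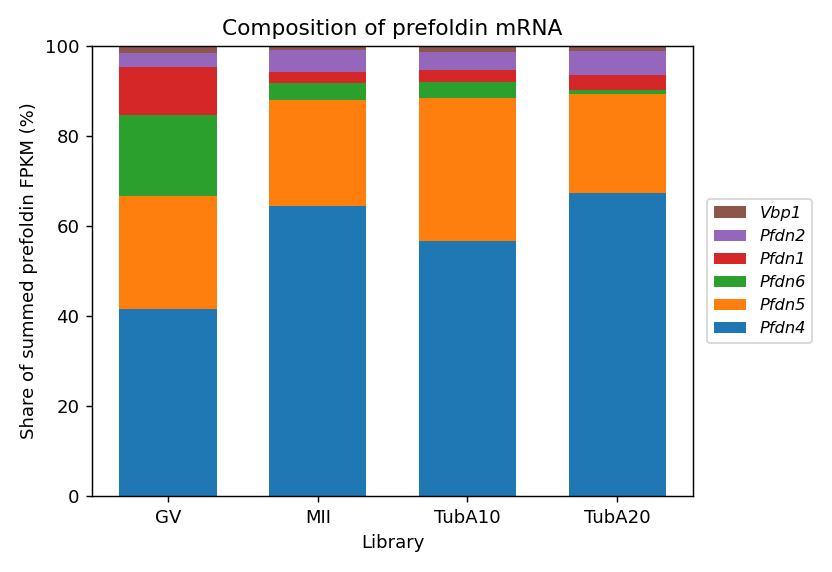
Share of each prefoldin subunit gene in the summed FPKM of the 6 genes (percent) in each library, as stacked bars that start at 0. The part of *Pfdn6* shrinks from 18.1% in GV to 0.887% in TubA20, and that of *Pfdn4* grows from 41.5% to 67.3%.

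Of the cofactors that hold single tubulin chains, *Tbca* (chr13:94788910-94842922, plus strand), which binds beta-tubulin, had 307 FPKM in GV, 299 FPKM in MII, 352 FPKM in TubA10 and 264 FPKM in TubA20. TubA10 was again the highest library and TubA20 the lowest, and no change between libraries exceeded 0.41 in size. *Tbcb* (chr7:30224131-30232272, minus strand), which binds alpha-tubulin, had 118 FPKM in GV, 50.9 FPKM in MII, 55.9 FPKM in TubA10 and 37.9 FPKM in TubA20. It was the only cofactor of the 4 past 2-fold against GV with a pseudocount of 1, with changes of -1.20 in MII, -1.07 in TubA10 and -1.62 in TubA20. Scaled to equal *Gapdh*, the changes of *Tbcb* in MII and TubA10 were -0.98 and -0.81, inside 2-fold, and with equal FPKM sums that in TubA10 was -0.99. TubA20 was lower than MII by less than 2-fold (-0.41). The ratio of *Tbca* to *Tbcb* was 2.60 in GV, 5.87 in MII, 6.31 in TubA10 and 6.97 in TubA20.

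The cofactors that join alpha- to beta-tubulin had far lower transcript levels. *Tbce* (chr13:13997949-14039638, minus strand) had 5.79 FPKM in GV, 4.90 FPKM in MII, 6.02 FPKM in TubA10 and 4.14 FPKM in TubA20, and *Tbcd* (chr11:121451949-121617164, plus strand) had 2.63, 2.61, 3.10 and 1.30 FPKM. Both were lowest in TubA20 and highest in TubA10. The difference of *Tbcd* between TubA20 and TubA10 was -0.83 with a pseudocount of 1 and passed 2-fold with pseudocounts of 0.1 (-1.19) and 0.01 (-1.24), and that between TubA20 and GV was -1.01 with the smallest pseudocount. These are the lowest levels among the members, and their counting error could not be given without read counts. *Tbcd* overlaps *Zfp750* by 8356 bases and *B3gntl1* by 968 bases, and *Tbce* overlaps *B3galnt2* by 1155 bases, all on the opposite strand. The deposited values were made with a strand-specific setting, and whether it kept these reads apart was not tested. Over the 4 cofactors, *Tbca* stood 114 to 117 times above *Tbcd* in GV, MII and TubA10 and 203 times above it in TubA20.

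In MII against GV, 3 of the 10 members (*Pfdn1*, *Pfdn6* and *Tbcb*) were lower past 2-fold and 0 were higher, where 8.34% of all genes were lower and 3.05% higher. Among genes that reached 5 FPKM in either library, 20.8% were lower. The median change of the members was -0.19, beside 0.13 over 9193 genes that reached 1 FPKM in all 4 libraries. In TubA10 against GV, the same 3 members were lower and 0 higher, where 5.6% of all genes and 14.2% of those of at least 5 FPKM were lower and 0.742% of all genes were higher, and the medians were 0.11 for the members and 0.14 for these genes. In TubA20 against GV, *Pfdn1*, *Pfdn6* and *Tbcb* were again lower and 0 members higher, where 11.7% of all genes and 26.8% of those of at least 5 FPKM were lower and 7.61% of all genes were higher, and the medians were -0.51 and 0.19. These 3 comparisons share the GV library. *Tbcd* does not reach 5 FPKM in any library, and most members lie far above it, so these percentages are not of genes matched to the members in level. Against GV, the median of the 9193 genes was above 0, and with that median set to 0 the changes of *Pfdn6* were -2.57 in MII, -2.52 in TubA10 and -4.63 in TubA20, those of *Pfdn1* were -2.24, -2.05 and -2.08, and those of *Tbcb* were -1.34, -1.23 and -1.84. On the same scale, *Pfdn4* was at 0.39, 0.31 and 0.34, and *Pfdn2* at 0.40, 0.21 and 0.44.

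**Figure D3:**
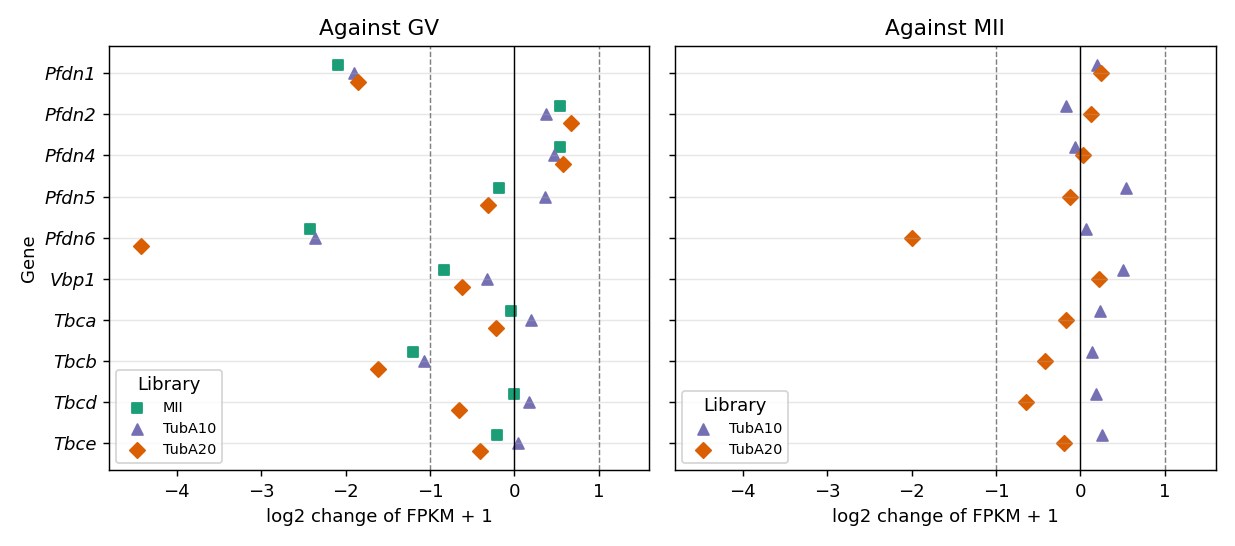
Change of each member (log2 ratio of FPKM + 1) in MII, TubA10 and TubA20 against GV on the left and in TubA10 and TubA20 against MII on the right, 1 point for each comparison, with dashed lines at 2-fold. *Pfdn1*, *Pfdn6* and *Tbcb* lie past the lower line in all 3 comparisons with GV, and *Pfdn6* with TubA20 is the 1 point past it on the right.

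In TubA10 against MII, 0 of 10 members were lower and 0 higher past 2-fold, where 0.128% of all genes and 0.206% of those of at least 5 FPKM were lower and 0.515% of all genes were higher. The members lay between -0.17 (*Pfdn2*) and 0.54 (*Pfdn5*), with a median of 0.19 beside 0.00 over the 9193 genes, and all 4 cofactors were above 0. In TubA20 against MII, 1 of 10 members was lower (*Pfdn6*, -1.99) and 0 were higher, where 2.44% of all genes and 6.09% of those of at least 5 FPKM were lower and 0.328% of all genes were higher. The other 9 members lay between -0.65 (*Tbcd*) and 0.24 (*Pfdn1*), and all 4 cofactors were below 0, with a median of -0.31. The median over the members was -0.15, beside 0.02 over the 9193 genes. In TubA20 against TubA10, 1 member was lower (*Pfdn6*, -2.06) and 0 were higher, where 5.52% of all genes and 14.1% of those of at least 5 FPKM were lower and 0.66% of all genes were higher. The medians of that comparison were -0.43 for the members and 0.06 for the 9193 genes. These comparisons share libraries with each other and with those against GV. Each count here is that of *Pfdn6* alone.

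**Figure D4:**
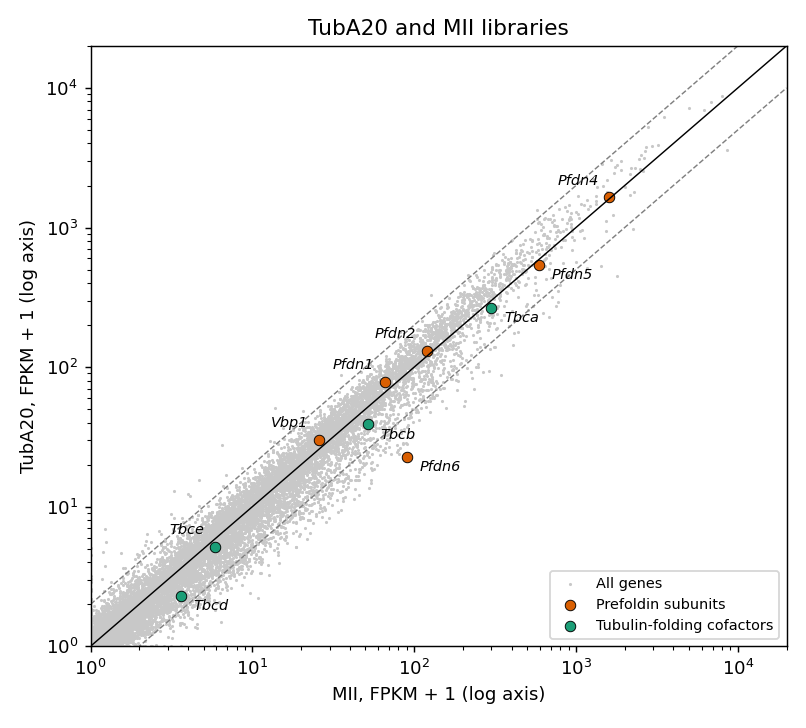
FPKM + 1 in MII (horizontal, log10 axis) and in TubA20 (vertical, log10 axis), with the 10 members as labelled points over all genes in grey, a solid line of equality and dashed lines at 2-fold. *Pfdn6* lies below the lower line at 89.5 and 21.7 FPKM, and most other members lie close to the diagonal.

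The other genes of the folding pathway were taken as lists by role. In TubA20 against MII, 2.44% of all genes were lower past 2-fold and 0.328% higher. Of those that reached 5 FPKM in either library, 6.09% were lower. Of 4 other cofactor genes, 1 was lower past 2-fold there and 0 were higher. This was *Tbcc*, which completes the assembly with *Tbcd* and *Tbce*, with 21.2 FPKM in GV, 14.7 FPKM in MII, 18.2 FPKM in TubA10 and 4.86 FPKM in TubA20 (-1.43 in TubA20 against MII). The highest of this list was *Arl2*, a small GTPase that binds *Tbcd*, with 251, 172, 210 and 96.3 FPKM in the same order, and its TubA20 level was lower than that of MII by less than 2-fold (-0.83). Among the 7 CCT chaperonin genes analysed, 0 passed 2-fold in either direction in TubA20 against MII, with a median of -0.16, and the highest of them, *Cct5*, had 492, 245, 277 and 236 FPKM. Against GV, 4 of these 7 were lower in TubA20 and 1 in MII, where 26.8% and 20.8% of the genes that reach 5 FPKM in either library were lower. Of the 4 phosducin-like genes, whose products assist CCT, 0 passed 2-fold in TubA20 against MII, and *Txndc9*, the highest, had 657, 347, 352 and 361 FPKM, so that, as for *Pfdn1*, all 3 cultured libraries lay together under GV.

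Of the 13 alpha- and beta-tubulin genes, the clients of the members, *Tubb1* and *Tuba8* were at 0 in MII and TubA20. *Tubb4a* was at or below 0.134 FPKM, so none of these could be counted as lower. The median of the 13 in TubA20 against MII was -0.76. Beside 2.44% of all genes and 6.09% of those of at least 5 FPKM lower, 4 of the 13 were lower there past 2-fold and 0 were higher. They were *Tubb2b* (-1.87), *Tuba4a* (-1.08), *Tubb5* (-1.05) and *Tubb6* (-1.02), and *Tubb4b*, the highest tubulin gene by its mean over the libraries, had 662 FPKM in GV, 171 FPKM in MII, 215 FPKM in TubA10 and 94.6 FPKM in TubA20. That mean rests on GV, since *Tubb2a* was the highest in MII (319 FPKM) and TubA10 (354 FPKM) and *Tubb3* in TubA20 (253 FPKM), both named after their values were seen. Reads of near-identical tubulin genes may have been divided among them. The 8 prefoldin-like and R2TP genes encode relatives of prefoldin and the co-chaperone complex they join. Beside the same shares of lower genes, 2 of these 8 were lower past 2-fold and 0 higher in TubA20 against MII. These were *Ruvbl2*, an AAA+ ATPase with 185, 47.9, 60.8 and 19.0 FPKM (-1.29), and *Pih1d1*, an adaptor with 66.0, 13.1, 16.2 and 5.58 FPKM (-1.10). With a pseudocount of 1, *Pfdn6* had the lowest value in TubA20 against MII of all these lists, and by the ratio of FPKM without one *Tubb2b* was lower, 4.55-fold against 4.12-fold. The deacetylases of tubulin had low levels, *Hdac6* between 1.86 FPKM in TubA20 and 4.44 FPKM in GV and *Sirt2* between 1.97 FPKM in TubA20 and 6.77 FPKM in GV.

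**Figure D5:**
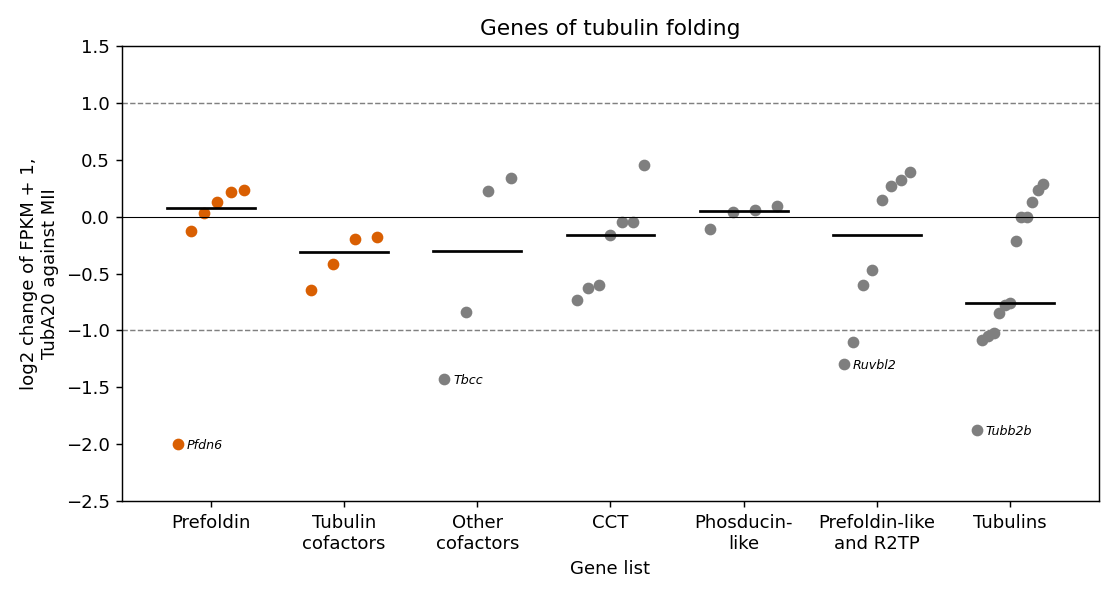
Change of each gene in TubA20 against MII (log2 ratio of FPKM + 1) in 7 lists of tubulin folding, with the 2 lists of members in orange, a bar at each median and dashed lines at 2-fold. *Pfdn6* lies at -1.99, and the medians run from -0.76 in the tubulins to 0.08 in prefoldin.

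Neighbours of the members in the genome were compared with them, since several start from a shared region. *Nit1*, which encodes an amidase, starts 24 bases from *Pfdn2* on the opposite strand, within the *Pfdn2* promoter printed above. It had 67.5 FPKM in GV, 15.4 FPKM in MII, 24.4 FPKM in TubA10 and 8.33 FPKM in TubA20. Against GV it was thus lower past 2-fold in MII (-2.06), TubA10 (-1.43) and TubA20 (-2.88), where *Pfdn2* was higher (0.54, 0.37 and 0.67). *Wdr46* starts 317 bases from *Pfdn6* on the opposite strand, and had 7.84, 4.29, 5.12 and 3.81 FPKM. Against GV, *Wdr46* changed by -0.74 in MII, -0.53 in TubA10 and -0.88 in TubA20, all inside 2-fold. *Pfdn6* changed there by -2.42, -2.36 and -4.42. In TubA20 against MII *Wdr46* changed by -0.14, where *Pfdn6* changed by -1.99. *Polr2i*, a subunit gene of RNA polymerase II, overlaps the GENCODE start of *Tbcb* by 325 bases on the opposite strand. The RefSeq promoter of *Tbcb* (chr7:30231342-30231641) lies further inside the gene and does not overlap *Polr2i*, so a shared start depends on the annotation. *Polr2i* had 591, 106, 146 and 83.3 FPKM, which made it lower than GV in every cultured library, as *Tbcb* was. Of these 3 pairs, *Pfdn2* and *Nit1* had changes of opposite sign against GV. The other pairs had changes of the same sign, of unlike size for *Pfdn6* and *Wdr46*. *Cyp24a1*, which overlaps the start of *Pfdn4* by 718 bases on the opposite strand, was at or below 0.178 FPKM in every library.

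The 3′ ends of the transcripts were read for the letters of the cytoplasmic polyadenylation element, TTTTAT or TTTTAAT, which in oocytes is known to mark stored transcripts for a longer tail. The search covered the last 150 bases of the 3′ UTR of the principal transcript, on the transcript strand. A shorter 3′ UTR, as in *Tbcb* (102 bases) and *Tbce* (137 bases), was searched whole, so the windows were not all of equal length. Of the 10 members, 1 held these letters, against 20.6% of 21832 genes. This was *Tbca*, with 2 matches of TTTTAT. Its last 30 bases, on GRCm38, are printed with the polyadenylation hexamer AATAAA and the last TTTTAT in capitals. That match lies 3′ of the hexamer, and the other match is not printed.
Tbca, chr13:94842893-94842922, plus strand: catctAATAAAattgtttgTTTTATacttt

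The hexamer AATAAA or its variant ATTAAA lay in the last 40 bases of the 3′ UTR of 6 members, against 68.7% of genes. Neither was found there in *Pfdn1*, *Pfdn4*, *Pfdn5* and *Pfdn6*. Among these 4, *Pfdn1* and *Pfdn6* were lower past 2-fold in TubA20 against GV, and *Pfdn4* and *Pfdn5* were not. *Tbcb*, which held ATTAAA, was also lower there. Only the principal transcript of each gene was read, and a link between the hexamer and the levels was not tested. The 3′ UTR of the members had a median of 269 bases, beside 771 bases over all genes. The libraries were made from RNA selected by its poly(A) tail, and the part of tail length in the levels was not tested.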

How the data were processed

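RNA-seq of mouse oocytes gave 1 library for each of GV, MII, TubA10 and TubA20. RNA was selected with oligo(dT). The labels and the methods differ on the extraction reagent, and the study describes both pools of 100 and single oocytes. The authors deposited 1 table of FPKM values, made with Cufflinks on a first-strand library setting against mm10 and so divided by transcript length and mapped fragments. The submitters' processing notes also name STAR 2.5.0 and Cuffdiff 2.2.1. Symbols and GRCm38 coordinates (GENCODE M21) were joined by Ensembl identifier for 21794 of 21959 entries, 165 kept their identifier, and entries that share a symbol were summed (21957 genes). All columns were mapped by the description in the labels, and 0 were left out.

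Changes were log2 ratios of FPKM with a pseudocount of 1, counted past 2-fold without a filter on low values, which understates the change of low genes. With 1 library a group no test was made. The members and lists were chosen with earlier results of these data known. Named genes were the 10 members, the highest gene of each pathway list and its genes past 2-fold in TubA20 against MII, overlapping or nearest neighbours, *Hdac6*, *Sirt2*, *Gapdh*, and the 3 genes nearest to each member with at least 10 FPKM in 1 library by Euclidean distance over the changes against GV, among genes that reach this level. *Myg1* and the other neighbours fall under this rule. Markers could be named, and *Tubb2a* and *Tubb3* were added after their values were seen.

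Relative depth was read from the commonest ratio of low FPKM values between libraries and is an estimate. The calculations were tested on simulated data. Alternatives were lower pseudocounts (0.1 and 0.01), filters at 1 and 5 FPKM, 4 scalings (median change of 0, equal FPKM sums, upper quartiles or *Gapdh*), thresholds of 1.5-fold and 3-fold, and the highest in place of the sum of entries sharing a symbol. Python 3.11.15 with numpy 2.4.6, pandas 2.3.3 and matplotlib 3.10.9 was used.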

Additional observations from a re-analysis of the deposited data

How the results depend on the processing

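Under the 11 alternatives and the main setting no change of a member reversed past 2-fold. Of 533 alternative values of single members with the threshold kept at 2-fold, 527 stayed on their side of it, 3 of *Tbcb* moved inside it and 3 of *Tbcd* moved past it. The 533 include values that could not move. The filters at 1 and 5 FPKM only drop members, and taking the highest entry left the value of every member as it was. With the threshold at 1.5-fold or 3-fold, the values were the same and 9 of 120 calls were not: 7 were made at 1.5-fold and 2, both of *Tbcb*, were lost at 3-fold. Of 198 counts and medians, 192 stayed within 1.5 times the count or within the SD of TubA10 against MII over genes of at least 5 FPKM (0.38). The counts that moved were those of TubA20. At 1.5-fold, TubA20 had 5 members lower and 1 higher than GV, 2 lower than MII and 3 lower than TubA10. With pseudocounts of 0.1 and 0.01, 2 members were lower in TubA20 than in TubA10 under each. *Pfdn6* lay between -2.15 and -1.99 in TubA20 against MII and between -4.63 and -4.35 in TubA20 against GV. Signs of changes near 0 in size turned under the scalings: *Tbca* (0.09 with equal FPKM sums) and *Tbcd* (0.09) in MII against GV, *Pfdn5* there with equal *Gapdh* (0.05), and *Tbce* in TubA10 against GV with a median change of 0 (-0.09). No paired analysis was possible because each group has 1 library, and leaving out a library was not possible for the same reason. What depth limits most is *Tbcd* and *Tbce*, below 7 FPKM in all 4 libraries.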

Other observations

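The genes nearest to each member, by distance over the 3 changes against GV among 6364 genes with at least 10 FPKM in a library, are given as a description, since the 3 changes share the GV library. The nearest to *Pfdn6* was *Fam162a*, a mitochondrial protein gene, at a distance of 0.22, with 445 FPKM in GV, 80.0 FPKM in MII, 81.9 FPKM in TubA10 and 23.0 FPKM in TubA20. *Cpsf4l* and *Mrps18c*, a mitochondrial ribosomal protein gene, followed at 0.38 each, while the nearest member to it, *Pfdn1*, lay at 2.63, with 656 genes nearer. *Pfdn1* was followed most closely by *Fkbpl* (0.24), the ribosomal protein gene *Rps16* (0.25) and *Dtnb* (0.29). For *Tbcb* these were *Ywhah* (0.08), *Hspa8* (0.09), a cytosolic HSP70 chaperone gene, and *Emc4* (0.10). *Hspa8* had 547, 230, 260 and 168 FPKM in GV, MII, TubA10 and TubA20.

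The closest pair of members was *Pfdn2* and *Pfdn4*, at a distance of 0.14, with 79 genes nearer to *Pfdn2* and 49 nearer to *Pfdn4*. *Pfdn5* and *Tbca*, both highest in TubA10 and lowest in TubA20, lay 0.23 apart. Near *Vbp1* were the glycolytic gene *Pgk1* (0.08) and the kinase gene *Aurka* (0.10).

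Against GV, 4 of the 8 prefoldin-like and R2TP genes were lower past 2-fold in MII and 1 was higher. Of all genes, 8.34% were lower and 3.05% higher, and 20.8% of those of at least 5 FPKM in either library were lower. In TubA20 the counts were also 4 and 1, where 11.7% of all genes were lower and 7.61% higher. Among genes of at least 5 FPKM in either library, 26.8% were lower there. *Pih1d1* was the lowest of them in both (-2.25 and -3.35), and *Wdr92* the highest (1.11 and 1.38) and is named here after its values were seen.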
